A study of Mus musculus with 67 samples.

Results

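The mitosis and spindle genes described here are 47 mouse genes whose products build the mitotic spindle, condense and separate the chromosomes and divide the cell. They were taken from a list of names by known function, and they make up 47 of the 24546 gene features in the files. They fall into 7 roles: chromosome structure, cyclins with Cdk1, mitotic kinases with the passenger complex, kinetochore and checkpoint, motors and spindle, cytokinesis, and anaphase promotion.

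The study sorted T cells from the brains of adult mice kept on a standard diet or a high-calorie diet and sequenced their RNA in bulk. The larger experiment has 59 libraries of 2 sorted populations, 29 of activated conventional T cells (activated Tconv, live CD4+ cells lacking CD25 and the Foxp3GFP reporter, CD44 high and CD62L low) and 30 of regulatory T cells (Tregs). A pilot of 8 libraries, 1 per group, is given at the end, from female ob/ob mice, female BL6 mice and female BalbC Foxp3 GFP mice on either diet. In each tissue and cell type the questions are whether these genes differ between the T cell populations, between hypothalamus and the rest of the brain, between strains and between diets.

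Both strains, BalbC and BL6, were given the standard diet (SD) or the high-fat, high-sugar diet (HFHSD, HFD in the library labels). The hypothalamus gave 16 activated Tconv and 16 Treg libraries, 4 for each combination of strain and diet. Remaining brain tissue (called the rest of the brain) gave 13 activated Tconv libraries (4 of BL6 on SD and 3 of each other combination) and 14 Treg libraries (2 of BalbC on SD and 4 of each other combination). BalbC mice were female and BL6 mice male, so strain and sex cannot be told apart. Every library is a pool of cells from several mice, named here by the pool number in its label, such as 21_25. The reporter is green fluorescent protein (GFP) driven by Foxp3, the transcription factor that defines Tregs.

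Levels are in CPM, the share of a library's total count that a gene takes on the usual scale, from the authors' estimated read counts summed over the RefSeq names of each gene. Total estimated counts ranged from 13196697 to 20538319 in hypothalamic activated Tconv, from 11340062 to 28187003 in rest-brain activated Tconv, from 8938478 to 24985601 in rest-brain Tregs and from 1724154 to 38482282 in hypothalamic Tregs. A gene at 3 counts or fewer is called at or under the floor, which lay between 0.0780 and 1.74 CPM depending on the library. The number of features over the floor was 9387 to 10499 in hypothalamic activated Tconv and 2370 to 10476 in hypothalamic Tregs. Outside the hypothalamus it was 10869 to 14195 in activated Tconv and 5960 to 10281 in Tregs. Medians were 4761 in hypothalamic Tregs against 9926.5 in activated Tconv, with overlap, and 9138 against 12387 in the rest of the brain, without overlap. This moves with each comparison of cell type given here, and its part in those results was not tested.

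Resting T cells stay outside the cell cycle and hold little RNA of these genes, whereas an activated T cell re-enters the cycle and makes them in a wave that peaks in G2 and M phase. Cyclins bind Cdk1 to start mitosis, condensins compact the chromosomes, kinetochores tie them to the spindle under the eye of a checkpoint, and the anaphase-promoting complex ends the process by degrading cyclin B and securin. The wave is driven by the transcription factors B-Myb and FoxM1 and held down in resting cells by the DREAM complex. Tregs can divide as well.

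The labels were checked against marker genes before any comparison. Foxp3 lay at 241, 385 and 767 CPM (lowest, median, highest) in rest-brain Tregs and at 0.0355, 6.09 and 12.6 CPM in rest-brain activated Tconv. In the hypothalamus it lay at 0.0977, 206 and 862 CPM in Tregs and at 0, 3.93 and 13.8 CPM in activated Tconv. In the rest of the brain every Treg library was above every activated Tconv library, whereas in the hypothalamus the lowest Treg libraries reached into the activated Tconv range.

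4 hypothalamic Treg libraries stand apart and are called the doubted libraries from here on, a choice made after seeing the data. Pool 32_36 of BalbC on SD held 0.0977 CPM of Foxp3 and much RNA of microglia genes such as P2ry12 and Csf1r, beside 4134 CPM of T cell and 4003 CPM of Treg markers, with 1 member over the floor. Pool 11_15 of BL6 on SD held 1.21 CPM of Foxp3, 199 CPM of T cell markers and 17979 CPM of endothelial markers. Pool 43_47 of BL6 on SD had only 1724154 counts, with 3.48 CPM of Foxp3, 10323 CPM of T cell markers, 7111 CPM of Treg markers, 1446 CPM of B cell markers and 1060.4 CPM of erythroid markers. Pool 06_10 of BL6 on HFD held 0.429 CPM of Foxp3 but 9061 CPM of T cell markers and 5882 CPM of Treg markers. Tests that use hypothalamic Tregs are given with and without these 4 for the number of members called and the median fold change, while scores and levels include them. Among activated Tconv, the rest-brain pool 42_46 of BalbC on SD stood out with raised microglia genes. The hypothalamic activated Tconv pool 72_76 of BL6 on HFD held 2118 CPM of CD8 T or NK cell markers, against a median of 396 in its cell type and tissue. The label of the hypothalamic pool 67_66 of BL6 on SD has a pool number whose parts run downwards.

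T cell markers (7 matched of 8) summed to medians of 9074 CPM in hypothalamic activated Tconv, 8733 in hypothalamic Tregs, 8667 in rest-brain activated Tconv and 9254 in rest-brain Tregs. The 9 Treg markers summed to 952, 4045, 1232 and 5574 CPM in the same order, with Tnfrsf18 or Tnfrsf4 the most abundant. The 8 activated Tconv markers summed to 5583, 1485, 6259 and 1656 CPM. Apart from the doubted libraries, the sorted populations carry the markers of their labels.

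P2ry12 is only 1 gene of the microglia list, and not its most abundant. It had medians of 0 CPM in hypothalamic activated Tconv, 0 in hypothalamic Tregs, 4.63 in rest-brain activated Tconv and 0 in rest-brain Tregs. In the same order it reached 0.0562, 4866, 265 and 64.8 CPM. The hypothalamic Treg pool 67_71 of BL6 on SD, not among the doubted libraries, held 308 CPM of it beside 296 CPM of Foxp3. For other cells and in the same order, medians were 237, 141, 261 and 118 CPM for 8 macrophage or monocyte genes, most of it Ccr2. The 8 oligodendrocyte genes gave 315, 404, 322 and 412 CPM, most of it Cnp. Ccr2 and Cnp are also made by T cells to some degree. Endothelial genes (8) gave 95.1, 3.15, 125 and 113 CPM, and CD8 T or NK cell genes (8) gave 396, 0.119, 380 and 67.6 CPM, with no test made on either. Neuron genes (8) gave 0.272, 0.138, 1.74 and 0.348 CPM, and astrocyte genes (8) 2.41, 0.101, 4.15 and 13.2 CPM. B cell genes (7) gave 0.0278, 1.25, 6.64 and 19.4 CPM, erythroid genes (8) 0.0534, 0, 0.261 and 0.632 CPM, and neutrophil genes (7) 0, 0, 0.0543 and 0 CPM. By median, the CD8 T or NK cell list moves with the cell type comparison in both tissues, and the endothelial list does so in the hypothalamus. The microglia list as a whole had a higher median in Tregs than in activated Tconv in both tissues. The part of these lists in the results was not tested.

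The mean of log2(CPM + 1) over the 47 members, called the member score, was 3.61 ± 1.55 (standard deviation, n = 16) in hypothalamic activated Tconv and 1.17 ± 1.36 (n = 16) in hypothalamic Tregs. In the rest of the brain it was 3.42 ± 0.95 (n = 13) in activated Tconv and 2.66 ± 2.14 (n = 14) in Tregs. Activated Tconv libraries ran from 1.63 to 5.74 in the hypothalamus and from 2.16 to 5.14 in the rest of the brain. Treg libraries ran from 0.18 to 5.98 in the hypothalamus and from 0.68 to 6.54 in the rest of the brain, so the populations overlap in both tissues. Fewer dividing cells in a sorted population and less of these RNAs per cell cannot be told apart in bulk libraries.

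By strain and diet, hypothalamic activated Tconv scored 4.80 ± 0.65 in BalbC on HFD, 3.94 ± 1.504 in BalbC on SD, 3.69 ± 1.93 in BL6 on HFD and 1.999 ± 0.20 in BL6 on SD (n = 4 each). Hypothalamic Tregs scored 1.31 ± 0.62, 0.45 ± 0.21, 1.98 ± 2.67 and 0.95 ± 0.17 in the same order (n = 4 each). The wide spread of BL6 Tregs on HFD comes from 1 library, pool 72_76, at 5.98.

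Rest-brain activated Tconv scored 2.68 ± 0.35 in BalbC on HFD (n = 3), 4.07 ± 0.68 in BalbC on SD (n = 3), 3.49 ± 1.003 in BL6 on HFD (n = 3) and 3.43 ± 1.27 in BL6 on SD (n = 4). Rest-brain Tregs scored 2.73 ± 1.86 in BalbC on HFD (n = 4), 1.70 ± 0.04 in BalbC on SD (n = 2), 4.79 ± 2.41 in BL6 on HFD (n = 4) and 0.95 ± 0.25 in BL6 on SD (n = 4).

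**Figure D1:**
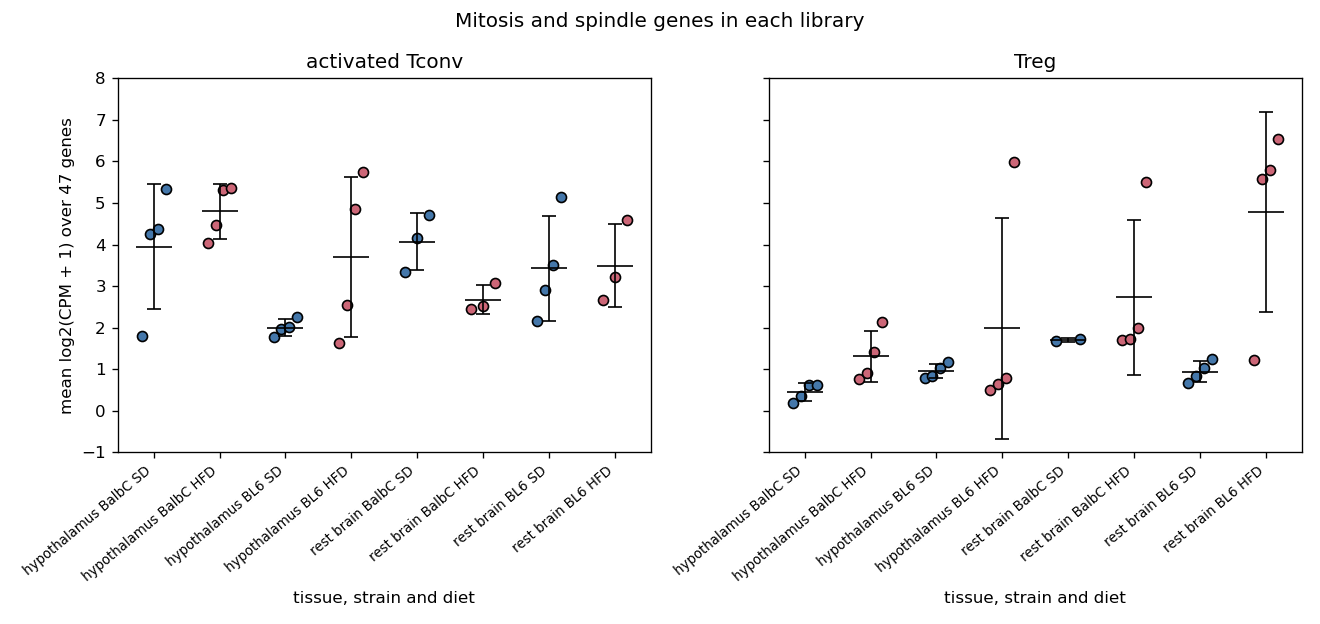
Mean of log2(CPM + 1) over the 47 mitosis and spindle genes (vertical axis) by tissue, strain and diet (horizontal axis), activated Tconv on the left and Tregs on the right. Each point is 1 library, blue for SD and red for HFD, and lines give the group mean and 1 standard deviation on either side; 5 Treg libraries, all on HFD, lie between 5.50 and 6.54 and the other 25 between 0.18 and 2.13.

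Activated Tconv libraries held between 17 and 47 members over the floor, and 18 of 29 held at least 40 (9 of 13 rest-brain, 9 of 16 hypothalamic ones). Treg libraries held between 1 and 46, and 5 of 30 held at least 40. Those 5 were, in the rest of the brain, the BL6 pools on HFD 21_25 (46 members, score 6.54), 77_80 (45, 5.81) and 33_37 (42, 5.58) and the BalbC pool on HFD 47_25 (43, 5.50), and in the hypothalamus the BL6 pool on HFD 72_76 (41, 5.98). Of the other 25 Treg libraries, 17 held at most 10 members, 7 held 11 to 20 and 1 held 22. The rest-brain BalbC Treg libraries other than 47_25 held 16 to 22.

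Counted by diet, at least 40 members were over the floor in 4 of 8 rest-brain Treg libraries on HFD (range 11 to 46) and in 0 of 6 on SD (range 6 to 17). In hypothalamic Tregs it was 1 of 8 on HFD (3 to 41) and 0 of 8 on SD (1 to 9). In activated Tconv it was 6 of 8 on HFD and 3 of 8 on SD in the hypothalamus, and outside it 4 of 6 on HFD and 5 of 7 on SD. These counts describe the libraries, and the tests by diet are given with each gene further on.

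**Figure D2:**
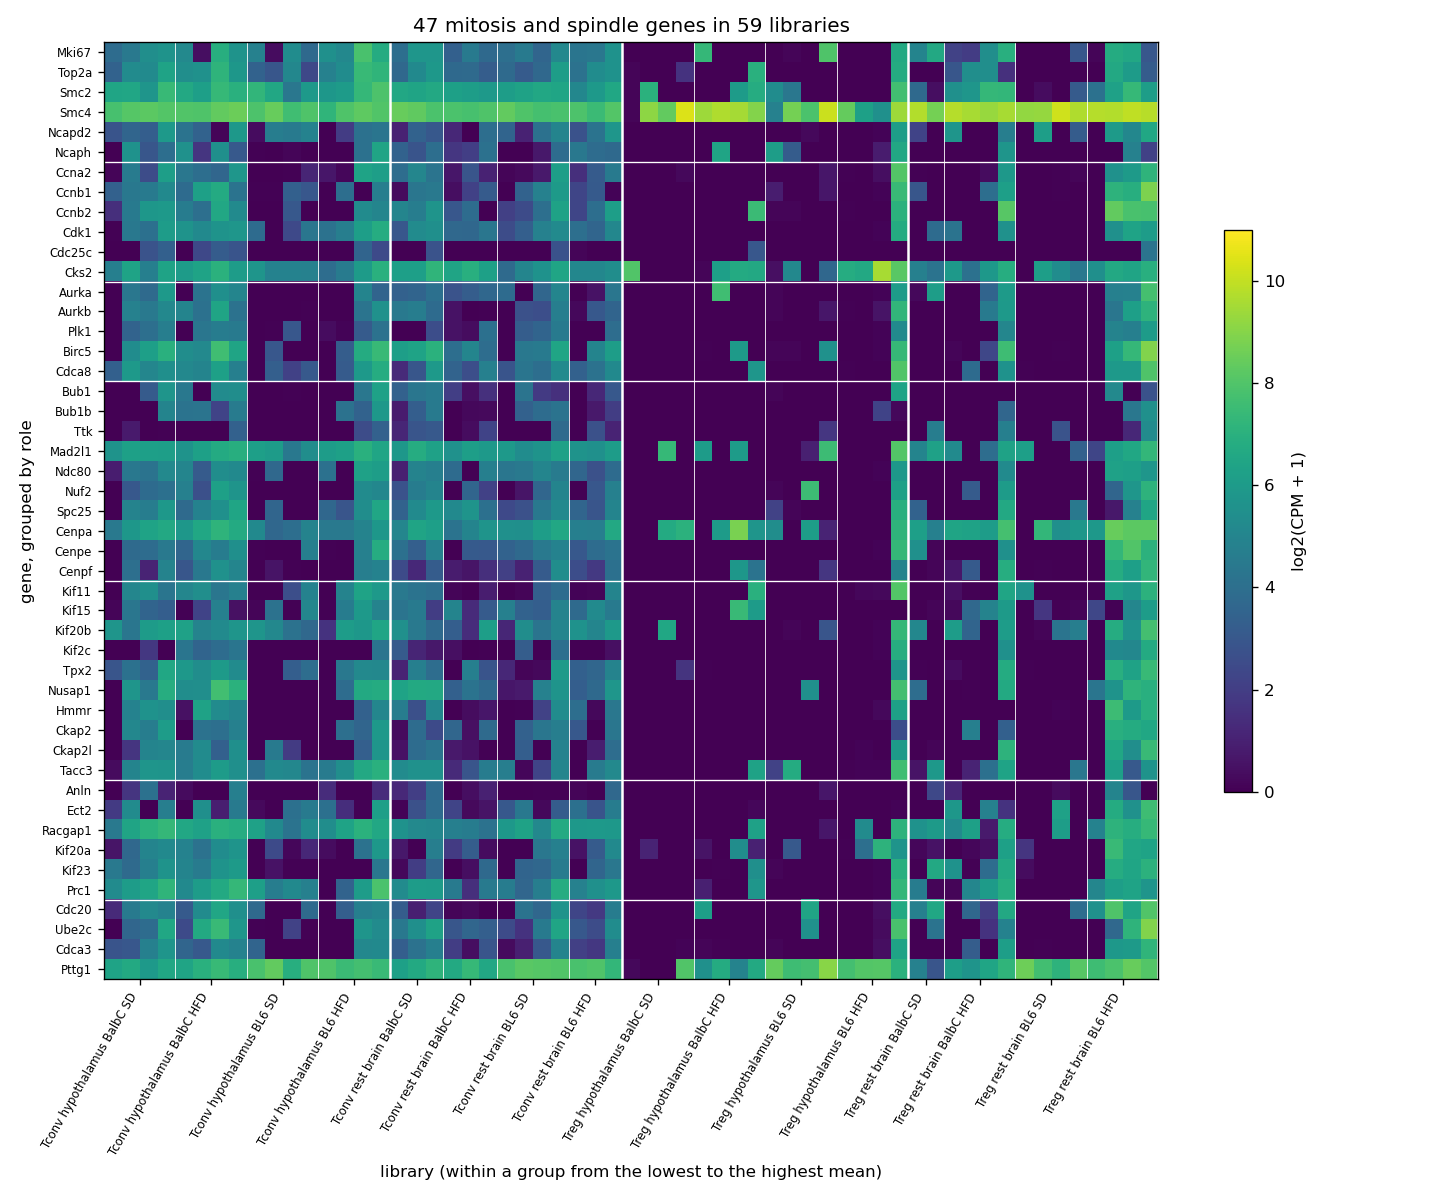
Level of each of the 47 genes (vertical axis, grouped by role) in each of 59 libraries (horizontal axis, ordered within a group from the lowest to the highest mean), coloured by log2(CPM + 1). Smc4 and Pttg1 are bright in nearly every library, Cks2 and Cenpa in most, and most Treg columns are dark for most of the other genes.

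The member easiest to find was Smc4, a core subunit of condensin that compacts chromosomes, over the floor in 29 of 29 activated Tconv and 29 of 30 Treg libraries. Pttg1, the securin that holds separase in check until anaphase, was over it in 29 and 27, and Cks2, a small subunit of Cdk1 complexes, in 29 and 23. Cenpa, the histone that marks centromeres, followed with 29 and 21. At the other end, Cdc25c, the phosphatase that switches on Cdk1, was over it in 9 and 2 libraries. Smc4 took 17.3% of the summed member CPM in the median hypothalamic activated Tconv library and 44.5% in the median hypothalamic Treg library. Its shares outside the hypothalamus were 22.4% and 54.6%.

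In the hypothalamus, 15 of 47 members were lower in Tregs than in activated Tconv past an adjusted p of 0.05 and 0 were higher (edgeR, 16 against 16 libraries). Over all genes tested, 13.9% were called (1563 of 11285), 62 higher and 1501 lower, so a fall was the common direction for all genes. The median log2 fold change was −4.61 over the members and −0.96 over all genes. With the 2 members whose Treg libraries were all at or under the floor set to their bounds, the members' median was −4.58. Many other members were at or under the floor in most Treg libraries. The fitted sizes of those members are not measured ones, and both medians over the members include them. The unadjusted p was under 0.05 for 22 members, all lower, and for 2534 of 11285 genes, and 43 of 47 fold changes were negative. Without the 4 doubted libraries, 12 members fell and 1, Smc4, rose, beside 1905 of 11126 genes called, and the median was −3.87 against −0.97 for all genes. Leaving out the Treg pool 72_76 of BL6 on HFD took the median to −7.31 and the count of members called to 29. Medians over members and over all genes were −5.08 and −3.63 with limma-voom, and −8.72 and −4.88 with the pool number as a block.

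Among the chromosome structure genes, Ncapd2, a condensin subunit, lay over the floor in 14 of 16 activated Tconv libraries (0, 13.7 and 61.3 CPM, lowest, median and highest) and in 2 of 16 Treg libraries (highest 68.2 CPM). It fell in Tregs, with a log2 fold change of −8.66 ± 2.27 (SE, adjusted p = 0.00638). Mki67, which coats mitotic chromosomes and is the standard mark of cycling cells, lay over the floor in 16 of 16 activated Tconv libraries at 0.284, 37.95 and 229 CPM and in 3 of 16 Treg libraries (0, 0 and 253 CPM). The 3 Treg libraries with Mki67 lay high in the activated range or above it and the other 13 were at or under the floor. The library above that range, at 253 CPM, was the doubted pool 43_47 of BL6 on SD. The difference in Mki67 was not called (−1.59, adjusted p = 0.718). Top2a, which untangles sister chromatids, lay at 4.19, 39.3 and 172 CPM in activated Tconv and at 0, 0 and 124 CPM in Tregs (−4.35, adjusted p = 0.108). Smc4 went the other way, with 145, 256 and 365 CPM in activated Tconv and 0.0977, 455 and 1371 CPM in Tregs (0.74 ± 0.49, adjusted p = 0.436). Smc2, its partner in condensin, lay at 19.3, 93.0 and 242 CPM in activated Tconv and was over the floor in 6 of 16 Treg libraries. Ncaph, the kleisin that closes the condensin ring, was over it in 9 of 16 and 5 of 16 libraries.

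Among the cyclins and their kinase, Cdk1, the motor of mitotic entry, was over the floor in 14 of 16 activated Tconv libraries (0, 22.7 and 112 CPM) and in 1 of 16 Treg libraries, pool 72_76 of BL6 on HFD at 107 CPM. It fell with a fitted log2 fold change of −9.95 ± 2.14 (adjusted p = 0.00116). That is not a measured size, since all other Treg libraries were at or under the floor. Cdc25c fell as well (7 of 16 against 1 of 16 libraries, −5.44 ± 1.88, adjusted p = 0.0499), at levels no higher than 10.7 and 6.81 CPM. Ccnb1, the cyclin that pairs with Cdk1 at mitosis, lay at 0, 13.997 and 103 CPM in activated Tconv and was over the floor in 2 of 16 Treg libraries (−6.72, adjusted p = 0.113). Ccnb2 was over it in 11 of 16 and 2 of 16 libraries, and Ccna2, the cyclin of S and G2 phase, likewise in 11 of 16 and 2 of 16. Cks2 lay at 14.3, 58.4 and 130.4 CPM in activated Tconv and at 0, 53.5 and 757 CPM in Tregs (0.17 ± 1.05, adjusted p = 0.972).

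Of the mitotic kinases, Plk1, which matures centrosomes and triggers cytokinesis, fell (10 of 16 libraries, highest 25.3 CPM, against 1 of 16, 37.8 CPM; −8.48 ± 2.30, adjusted p = 0.00859). It missed the threshold with limma-voom (adjusted p = 0.0562). Aurka, the spindle pole kinase, was over the floor in 8 of 16 and 2 of 16 libraries and Aurkb, the kinase of the passenger complex, in 9 of 16 and 2 of 16. Birc5, the survivin of that complex, lay at 0, 37.2 and 195 CPM in activated Tconv and at 0, 0 and 163 CPM in Tregs (−1.80, adjusted p = 0.72). Its 3 Treg libraries over the floor include the doubted pool 43_47 of BL6 on SD. Cdca8, the borealin of the same complex, was over it in 14 of 16 and 2 of 16 libraries.

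At the kinetochore, Ndc80, which grips microtubules, lay at 0, 16.8 and 78.2 CPM in activated Tconv (12 of 16 over the floor) and was over the floor in 1 of 16 Treg libraries. It fell with a log2 fold change of −9.15 ± 2.12 (adjusted p = 0.00228). The checkpoint kinase-like Bub1b (8 of 16 against 1 of 16; −7.21 ± 1.86, adjusted p = 0.00685), the motor Cenpe (10 of 16 against 1 of 16; −8.93 ± 2.40, adjusted p = 0.00781) and the checkpoint kinase Ttk (4 of 16 against 1 of 16; −5.88 ± 2.03, adjusted p = 0.0456) fell too. Bub1b was not called by edgeR without the activated Tconv pool 32_36 of BalbC on SD (adjusted p = 0.0646). Ttk was rare in both populations, at no more than 9.76 and 2.32 CPM. Cenpa was over the floor in 8 of 16 Treg libraries, at 0, 20.8 and 437 CPM against 11.7, 45.4 and 142 CPM in activated Tconv (0.22 ± 1.09, adjusted p = 0.962). Mad2l1, the checkpoint inhibitor of anaphase, lay at 20.3, 72.4 and 126 CPM in activated Tconv and was over the floor in 6 of 16 Treg libraries. Nuf2 and Spc25, partners of Ndc80, were over it in 9 and 12 of 16 activated Tconv libraries and in 2 of 16 Treg libraries each.

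Of the motors and spindle genes, Kif15, a motor that helps keep the spindle bipolar, lay at 0.0548, 9.82 and 60.6 CPM in activated Tconv and was over the floor in 2 of 16 Treg libraries, at 172 and 64.7 CPM, both above the activated Tconv range. EdgeR, which holds strain and diet, gave a log2 fold change of −9.29 ± 2.42 (adjusted p = 0.00602), and −8.72 with an adjusted p of 0.0719 without the 4 doubted libraries. The mean CPM was not lower in Tregs (14.8 against 14.5). The spindle protein Ckap2 (9 of 16 against 1 of 16; −7.91 ± 2.01, adjusted p = 0.00599), its relative Ckap2l (11 of 16 against 1 of 16; −9.36 ± 2.43, adjusted p = 0.00587) and the spindle assembly factor Tpx2 (13 of 16 against 2 of 16; −7.01 ± 2.09, adjusted p = 0.0175) fell. Ckap2 missed the threshold with limma-voom (adjusted p = 0.0602). Kif11, the motor that pushes spindle poles apart, lay at 0, 27.5 and 82.2 CPM in activated Tconv, and 2 of 16 Treg libraries were over the floor. Kif20b, a motor of the late spindle, was over it in 16 of 16 and 3 of 16 libraries, Tacc3, which strengthens spindle fibres, in 16 of 16 and 4 of 16, and Nusap1, which bundles microtubules, in 10 of 16 and 2 of 16.

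Among the cytokinesis genes, Ect2, the exchange factor that sets the division furrow, was over the floor in 12 of 16 activated Tconv libraries (0, 9.07 and 72.3 CPM) and in 0 of 16 Treg libraries (highest 0.147 CPM). Its mean CPM was at least 53.6-fold lower in Tregs, against the mean floor of the Treg libraries (adjusted p = 4.24e-05). Anln, the anillin of the contractile ring, was over the floor in 7 of 16 and 0 of 16 libraries. Its mean CPM was at least 10.1-fold lower, against the same mean floor (adjusted p = 0.0133). Both genes were absent down to the floor in Tregs of the hypothalamus, pool 72_76 of BL6 on HFD included. Racgap1, a partner of Ect2, lay at 17.5, 83.8 and 159 CPM in activated Tconv, with 3 of 16 Treg libraries over the floor, and Prc1, which bundles the central spindle, at 0, 66.7 and 235 CPM with 3 of 16. Kif20a, a motor of the central spindle, was over the floor in 13 of 16 and 8 of 16 libraries, and Kif23, its neighbour there, in 10 of 16 and 2 of 16.

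In the anaphase group, Cdca3, a factor that helps degrade an inhibitor of mitotic entry, fell (11 of 16 against 2 of 16 libraries; −6.89 ± 2.20, adjusted p = 0.0285). Cdc20, the activator of the anaphase-promoting complex, was over the floor in 13 of 16 and 4 of 16 libraries, and Ube2c, its ubiquitin-conjugating enzyme, in 10 of 16 and 2 of 16. Pttg1 lay at 61.7, 147 and 323 CPM in activated Tconv and at 0, 161 and 529 CPM in Tregs, with wide overlap. Smc4, Pttg1 and Cks2 were over the floor in 15, 13 and 10 of 16 hypothalamic Treg libraries.

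In the rest of the brain, Tregs and activated Tconv differed in 3 of the 47 members, 1 higher and 2 lower in Tregs by the fitted fold change (edgeR, 14 against 13 libraries). The share of members called was under the 15.7% of all genes tested (2191 of 13961, 516 higher and 1675 lower). It was above the share of all genes with DESeq2 (15 members, 31.9%, beside 2662 of 13103 genes). The same held with the pool number as a block (9, 19.1%, beside 1767 of 13961), but not with limma-voom (8, 17.0%, beside 3501 of 13961). The members' median log2 fold change was −1.46, against −0.35 for all genes, with 11 positive and 36 negative. Leaving out 1 library took this median to between −2.70 and −0.36. The count of members called went to between 2 and 10, with 10 without the Treg pool 47_25 of BalbC on HFD. The unadjusted p was under 0.05 for 1 member higher and 3 lower and for 3667 of 13961 genes. The comparison shares no library with that in the hypothalamus.

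Smc4 rose in rest-brain Tregs, to 409.8, 837 and 1193 CPM from 178, 243 and 351 CPM in activated Tconv. Every Treg library lay above every activated Tconv library, and the log2 fold change was 1.54 ± 0.16 (adjusted p = 4.53e-08).

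Bub1, the checkpoint kinase that recruits others to the kinetochore, was over the floor in 11 of 13 activated Tconv libraries (0, 2.61 and 22.2 CPM) and in 2 of 14 Treg libraries (highest 35.4 CPM). It fell with a log2 fold change of −7.89 ± 2.14 (adjusted p = 0.0109). Hmmr, a spindle assembly protein and hyaluronan receptor, was over the floor in 9 of 13 and 3 of 14 libraries (highest 39.9 and 185 CPM), with a log2 fold change of −6.61 ± 2.11 (adjusted p = 0.0301), although its mean CPM was higher in Tregs (26.4 against 10.9). The 3 Treg libraries that held Hmmr lay above the activated Tconv range. For Bub1, pool 33_37 of BL6 on HFD (35.4 CPM) lay above that range and pool 21_25 (5.83 CPM) within it. The groups overlap in both genes. Leaving out any of 9 libraries ended the call of Hmmr, as did limma-voom and the pool number as a block.

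The other members of the rest brain spread widely in Tregs. For several of them the fold change was negative while the mean CPM was higher in Tregs, such as Ccnb2 (75.3 against 24.6) and Birc5 (64.8 against 44.1), with most of the counts in a few Treg libraries. Ndc80 lay at 0.0547, 19.0 and 31.2 CPM in activated Tconv and at 0, 0 and 78.6 CPM in Tregs (−4.62 ± 2.96, adjusted p = 0.356). Cdc20 lay at 0, 3.78 and 48.7 CPM and at 0, 20.4 and 255 CPM in the same order (3.28 ± 1.74, adjusted p = 0.24). Kif11 lay at 0, 0.863 and 30.4 CPM and at 0, 0.0595 and 135 CPM (2.13 ± 1.93, adjusted p = 0.554). None of the 3 was called, and in each the top of the Treg range lay above that of activated Tconv.

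The standard cycling genes showed the same spread in the rest of the brain. Mki67 lay at 9.33, 19.4 and 54.5 CPM in activated Tconv and at 0, 6.79 and 122 CPM in Tregs. Top2a lay at 7.90, 13.1 and 68.9 CPM and at 0, 0.967 and 97.6 CPM, and Cdk1 at 4.94, 15.3 and 44.2 CPM and at 0, 0 and 82.8 CPM. Ccnb1 and Birc5 reached 62.4 and 131 CPM in activated Tconv and 458 and 479 CPM in Tregs, with 6 and 5 of 14 Treg libraries over the floor.

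By role, the rest-brain scores of activated Tconv and Tregs were 4.81 ± 0.68 and 3.84 ± 1.63 for chromosome structure, 4.09 ± 1.10 and 3.77 ± 2.17 for anaphase promotion and 3.06 ± 1.005 and 2.77 ± 2.15 for cytokinesis (standard deviation, n = 13 and 14). In the hypothalamus the same roles scored 5.07 ± 1.04 and 2.41 ± 1.60, 4.20 ± 1.60 and 2.13 ± 1.77, and 3.53 ± 1.35 and 0.78 ± 1.30 (n = 16 each). The kinases and passenger complex scored 3.08 ± 2.27 and 0.77 ± 1.70 in the hypothalamus, then 3.09 ± 1.30 and 2.06 ± 2.80 outside it. Cyclins with Cdk1 scored 3.45 ± 1.64 and 1.16 ± 1.56, then 3.26 ± 1.12 and 2.41 ± 2.32. The kinetochore genes scored 3.13 ± 1.71 and 0.96 ± 1.32, then 3.33 ± 0.93 and 2.33 ± 2.01, and the motors 3.37 ± 1.72 and 0.70 ± 1.45, then 2.88 ± 1.18 and 2.22 ± 2.47. In each of the 7 roles the Treg mean was lower in both tissues, by more in the hypothalamus.

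Whether the difference of cell type differed between tissues was tested directly, over all 59 libraries. Only Ect2 passed among the 47 members, against 9.5% of all genes (1403 of 14771, 863 higher and 540 lower). Its fitted interaction was −11.46 ± 2.03 on the log2 scale (adjusted p = 1.04e-04), a size that cannot be measured because every hypothalamic Treg library was at or under the floor: in the rest of the brain 11 of 13 activated Tconv and 7 of 14 Treg libraries were over the floor (medians 6.29 and 1.02 CPM, highest 23.8 and 192 CPM), in the hypothalamus 12 of 16 and 0 of 16. Ncapd2 came next (−6.85 ± 2.36, adjusted p = 0.052) and then Anln (−6.55 ± 2.45, adjusted p = 0.08). The members' median was −0.80 against −0.17 for all genes, with 13 positive and 34 negative and an unadjusted p under 0.05 in 0 members higher and 3 lower and in 2974 of 14771 genes. Without the 4 doubted libraries 3 members passed, Ect2, Anln and Ttk, beside 1290 of 14409 genes, with a median of −0.52. With limma-voom 10 members passed but not Ect2 (adjusted p = 0.0848), beside 5905 of 14771 genes. With the pool number as a block 8 passed, beside 1238 of 14771, and without the Treg pool 72_76 of BL6 on HFD 10 passed, with a median of −4.39.

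In activated Tconv, none of the 47 members passed the test between hypothalamus and rest of the brain: edgeR called 0, against 17.4% of all genes (2234 of 12837, 16 against 13 libraries). At an unadjusted p under 0.05, 1 member (Racgap1, higher) stood against 28.5% of all genes. DESeq2 and limma-voom also called 0 members, against 20.4% and 23.6% of all genes. The members' median log2 fold change was 0.23 and that of all genes −0.11, with 28 positive and 19 negative. Its sign was not stable: it was −0.06 without the hypothalamic pool 06_10 of BL6 on HFD, −0.25 with limma-voom and −0.21 with the pool number as a block. With that block 0 members and 115 of 12837 genes were called.

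Values overlapped between the tissues in each member named here. Kif11 lay at 0, 27.5 and 82.2 CPM in the hypothalamus and at 0, 0.863 and 30.4 CPM in the rest of the brain (1.73 ± 1.17, adjusted p = 0.367). Ttk lay under the floor in 12 of 16 and 5 of 13 libraries and reached 9.76 and 12.8 CPM (−3.25 ± 2.27, adjusted p = 0.386). Cdc20 was higher in the hypothalamus by 1.40 ± 1.23 and Cdc25c by 2.07 ± 2.71 (adjusted p = 0.521 and 0.695), while the log2 fold change was −0.95 ± 1.58 for Nuf2 and −0.82 ± 2.92 for Kif2c, a motor that takes microtubules apart (adjusted p = 0.77 and 0.90), both with a higher mean CPM in the hypothalamus (16.7 against 11.5 and 5.10 against 2.64). Smc4, with medians of 256 and 243 CPM, and Pttg1, with 147 and 162 CPM, had close medians.

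In Tregs, 4 members fell in the hypothalamus against the rest of the brain and 0 rose (edgeR, 16 against 14 libraries), where 5.6% of all genes were called (706 of 12607, 11 higher and 695 lower). Leaving out 1 library took the count of members called to between 1 and 12. The members' median log2 fold change was −1.71 (−5.37 without the hypothalamic pool 72_76 of BL6 on HFD, −0.995 without the rest-brain pool 47_25 of BalbC on HFD) and that of all genes −0.88, with 39 of 47 negative and 11 members lower at an unadjusted p under 0.05, where 2140 of 12607 genes lay. Features over the floor (medians 4761 and 9138), endothelial genes (3.15 and 113 CPM) and CD8 T or NK cell genes (0.119 and 67.6 CPM) are lower in the hypothalamic libraries too, and their part in the result was not tested. This comparison uses the same Treg libraries as the comparisons of cell type.

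Ect2 was over the floor in 7 of 14 rest-brain Treg libraries (0, 1.02 and 192 CPM) and in 0 of 16 hypothalamic ones. Its mean CPM was at least 120.2-fold lower there, against the mean floor (adjusted p = 0.0111). Anln, over the floor in 5 of 14 and 0 of 16 libraries, had a mean CPM at least 10.1-fold lower (adjusted p = 0.0447). Ttk was over the floor in 5 of 14 libraries (highest 38.6 CPM) and in 1 of 16 (2.32 CPM), with a log2 fold change of −8.89 ± 2.37 (adjusted p = 0.0245). Ncapd2 was over it in 8 of 14 and 2 of 16 libraries (−7.68 ± 2.30, adjusted p = 0.0405). The rest-brain libraries over the floor came from both strains and both diets, with the highest Ect2 (192 CPM) and Ttk (38.6 CPM) in the BL6 pool 21_25 on HFD. The call held in 15 of 30 fits that each left out 1 library for Ncapd2 and in 14 of 30 for Anln. Ttk and Anln were not called with limma-voom, and none of the 4 with the pool number as a block. Without the 4 doubted libraries 3 members fell, beside 952 of 12049 genes called, with a median of −2.24 against −1.04 for all genes, and Ncapd2 was no longer called (−7.24, adjusted p = 0.0882).

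Members at the other end were Ncaph (2.31 ± 2.10, adjusted p = 0.722), Bub1 (0.98 ± 1.06, adjusted p = 0.797) and Smc2 (0.61 ± 1.77, adjusted p = 0.969). Ncaph was over the floor in 3 of 14 rest-brain and 5 of 16 hypothalamic Treg libraries, up to 52.0 and 95.3 CPM. Smc2 was over it in 11 of 14 and 6 of 16 libraries, with medians of 30.9 and 0.0137 CPM and means of 54.2 and 35.4 CPM, against the sign of its fold change. None of the 3 was called.

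Strain separated single members in activated Tconv of the hypothalamus: 1 of 47 was higher and 1 lower in BalbC (edgeR, 8 against 8 libraries), against 2.1% of all genes (228 of 10877). The members' median log2 fold change was 1.66, with 43 of 47 positive, and that of all genes 0.01. On HFD alone it was 0.21 over 45 members (27 positive), and on SD alone 1.45 over 33 (30 positive). The unadjusted p was under 0.05 for 7 members higher and 1 lower and for 1078 of 10877 genes.

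Pttg1 lay at 61.7, 96.7 and 167 CPM (lowest, median, highest) in BalbC and at 119, 221 and 323 CPM in BL6, lower in BalbC by a log2 fold change of −1.10 ± 0.22 (adjusted p = 0.0081). Cenpa lay at 20.8, 87.5 and 142 CPM in BalbC and at 11.7, 25.03 and 55.4 CPM in BL6, higher in BalbC by 1.54 ± 0.35 (adjusted p = 0.0238). Leaving out any of 6 libraries ended the call of Cenpa. Neither gene was called on HFD alone or on SD alone. The groups overlap in both genes, in Pttg1 between 119 and 167 CPM.

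Other members were mostly higher in BalbC without passing. Hmmr was over the floor in 7 of 8 BalbC libraries (0, 34.2 and 81.0 CPM) and in 2 of 8 BL6 libraries (highest 31.8 CPM), a log2 fold change of 5.45 ± 2.38 (adjusted p = 0.416). Aurka was over it in 6 of 8 (0, 18.3 and 60.02 CPM) and 2 of 8 (highest 29.8 CPM; 5.15 ± 2.76, adjusted p = 0.613), and Anln in 5 of 8 and 2 of 8 (highest 25.8 and 1.65 CPM; 5.56 ± 2.41, adjusted p = 0.413). Kif15 (−1.14 ± 1.32, adjusted p = 0.955) and Tacc3 (−0.20 ± 0.60, adjusted p = 0.993) leaned the other way.

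In activated Tconv of the rest of the brain, 3 members were higher and 2 lower in BalbC (edgeR, 46 of 47 tested, 6 against 7 libraries). That is no larger a share than the 23.5% of all genes called (2887 of 12289). The members' median log2 fold change was −0.11 and that of all genes −0.03, with 20 positive and 26 negative and an unadjusted p under 0.05 in 4 members each way and in 4325 of 12289 genes. The median turned to 0.35 without the BL6 pool 67_71 on SD, to 0.73 with limma-voom and to 0.37 on SD alone.

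Pttg1 was lower in BalbC here as well, at 75.8, 102 and 162 CPM against 153, 251 and 288 CPM (−0.79 ± 0.22, adjusted p = 0.0145). Cks2 lay at 71.96, 80.1 and 144 CPM in BalbC and at 13.1, 33.6 and 88.4 CPM in BL6 (1.52 ± 0.34, adjusted p = 0.00301). Racgap1 lay at 16.6, 29.7 and 48.2 CPM against 33.9, 57.5 and 104 CPM (−0.81 ± 0.26, adjusted p = 0.0288). In each of the 3 the highest of the lower strain reached into the other's range, and the call of Racgap1 held in only 6 of 13 fits with 1 library left out.

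Mad2l1 lay at 46.4, 66.3 and 109.9 CPM in BalbC and at 39.4, 49.1 and 77.5 CPM in BL6 (0.64 ± 0.22, adjusted p = 0.045), and Smc4 at 219, 244 and 351 CPM against 178, 243 and 328 CPM (0.42 ± 0.15, adjusted p = 0.0466). Both sit close to the threshold, and leaving out any of 9 libraries ended the call of Mad2l1 and any of 11 that of Smc4. Cdc20 (−3.59 ± 1.32, adjusted p = 0.0571) and Spc25 (1.40 ± 0.55, adjusted p = 0.0734) came next, then Cenpf, a large kinetochore protein (−1.84 ± 0.86, adjusted p = 0.136), Ect2 (−1.45 ± 1.10, adjusted p = 0.381) and Anln (4.32 ± 3.75, adjusted p = 0.455). Pool 42_46 of BalbC on SD, with raised microglia genes, belongs to this comparison, and the count was 6 without it. The 10 most abundant features took 11.9% to 16.3% of the counts in BalbC libraries and 7.47% to 9.34% in BL6 ones. The part of this difference in the result was not tested.

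In hypothalamic Tregs 9 of 47 members passed the filter on low counts, and edgeR called 0 of them by strain (8 against 8 libraries), where 0.0389% of all genes were called. At an unadjusted p under 0.05 there were 0 members and 3.78% of all genes. DESeq2 called 0 members and 3.79% of all genes, limma-voom 0 members and 0.169%. The median log2 fold change was −0.58 over the 9 members and −0.28 over all genes. It turned to 1.07 without pool 72_76 of BL6 on HFD and to 0.23 over 7 members without the 4 doubted libraries, where 0 were called. With more than 10 counts in total as the filter, 44 members were tested and 0 called. Their median was −4.51 (7 positive, 37 negative), against −0.84 for all genes. Several of them, such as Cdk1, Ndc80 and Plk1, were over the floor in pool 72_76 of BL6 on HFD alone. Their direction was set by that pool, and its part in this median was not tested. The unadjusted p was then under 0.05 for 2 members higher and 17 lower, and for 2849 of 13160 genes. Smc4 lay at 0.0977, 617 and 1371 CPM in BalbC and at 27.7, 287 and 1095 CPM in BL6 (0.73 ± 0.93), Tacc3 differed by −6.24 ± 4.91, Ncaph by −5.59 ± 5.47 and Kif20a by −2.59 ± 2.38, while Cenpa differed by 1.35 ± 2.31 and Smc2 by 0.41 ± 2.52 (adjusted p = 1 for each).

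In rest-brain Tregs edgeR called 0 of 46 members by strain (6 BalbC against 8 BL6 libraries), where 0.299% of all genes were called. At an unadjusted p under 0.05 there were 3 members, Bub1, Hmmr and Pttg1, all lower in BalbC, and 8.92% of all genes. DESeq2 called those 3 members and 2.95% of all genes, limma-voom 1 member, Pttg1, and 1.05%. The members' median was −0.78 (−2.42 to −0.37 with 1 library left out) and that of all genes 0.08, with 15 positive and 31 negative. It was −1.62 over 46 members on HFD alone, 0.99 over 14 members on SD alone and −2.47 with limma-voom.

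Hmmr was over the floor in 0 of 6 BalbC and 3 of 8 BL6 libraries (highest 185 CPM). Its mean CPM in BL6 was at least 222-fold above the mean BalbC floor (adjusted p = 0.131). Bub1 was over the floor in 0 of 6 and 2 of 8 (highest 35.4 CPM), with a mean at least 24.7-fold above it (adjusted p = 0.437). Neither was called. Ect2 differed by −3.55 ± 2.70, Prc1 by 3.99 ± 2.76, Aurka by 3.89 ± 5.94 and Kif23 by 3.57 ± 3.92 (adjusted p = 1 for each). The highest library of Aurka, at 216 CPM, was nonetheless of BL6. The BL6 libraries with Hmmr are the 3 on HFD with at least 42 members over the floor.

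Diet moved no member past the threshold in activated Tconv of the hypothalamus. EdgeR called 0 of 47 members and 0% of all genes (8 HFD against 8 SD libraries), with 6 members higher and 0 lower at an unadjusted p under 0.05, where 3.73% of all genes lay. DESeq2 called 1 member, Nusap1, higher on HFD, and 0.149% of all genes, and limma-voom 0 members and 0%. Still, 46 of 47 members leaned higher on HFD, with a median log2 fold change of 1.84 against −0.01 for all genes. The median was 0.61 in BalbC alone (46 members) and 1.34 in BL6 alone (26 members).

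Kif2c was over the floor in 5 of 8 HFD libraries (0, 12.2 and 18.4 CPM) and in 1 of 8 SD libraries (2.45 CPM; 6.44 ± 2.10, adjusted p = 1). Nuf2 was over it in 6 of 8 (0, 29.9 and 75.9 CPM) and 3 of 8 (highest 15.9 CPM; 5.42 ± 2.13, adjusted p = 1), and Ttk differed by 5.84 ± 2.39 (adjusted p = 1). At the other end, Ncapd2 differed by −0.48 ± 1.05, Smc4 by 0.05 ± 0.16 and Pttg1 by 0.21 ± 0.22 (adjusted p = 1 for each).

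Values of the standard cycling genes in each hypothalamic activated Tconv library follow, in the order of the pool numbers. Mki67 was at 107, 229, 44.8 and 34.4 in BL6 on HFD, 40.3, 0.284, 27.4 and 12.4 in BL6 on SD, 117, 35.6, 0.311 and 49.6 in BalbC on HFD and 13.7, 48.9, 42.8 and 20.6 in BalbC on SD (CPM). Top2a was at 146, 172, 27.5 and 39.4 in BL6 on HFD, 32.8, 6.76, 10.1 and 4.19 in BL6 on SD, 139.6, 42.5, 47.03 and 55.4 in BalbC on HFD and 9.98, 83.4, 37.6 and 39.2 in BalbC on SD (CPM). Cdk1 was at 112, 70.9, 16.6 and 25.01 in BL6 on HFD, 4.35, 0, 13.3 and 19.04 in BL6 on SD, 49.3, 49.2, 36.7 and 53.2 in BalbC on HFD and 0.0501, 66.7, 15.6 and 20.4 in BalbC on SD (CPM). On HFD the Top2a values lay between 27.5 and 172 CPM and on SD between 4.19 and 83.4 CPM, and the log2 fold change was 1.84 (adjusted p = 1). Ccnb1 was at 25.4, 0, 0 and 14.6 in BL6 on HFD, 9.31, 0.0568, 0.0557 and 6.87 in BL6 on SD, 103, 13.4, 75.2 and 17.2 in BalbC on HFD and 9.83, 36.5, 21.8 and 20.1 in BalbC on SD (CPM). Birc5 was at 168, 107, 0 and 8.49 in BL6 on HFD, 0, 7.04, 0 and 0 in BL6 on SD, 195, 41.6, 35.02 and 85.6 in BalbC on HFD and 0, 126, 73.3 and 39.3 in BalbC on SD (CPM). Fold changes were 1.58 for Mki67, 1.78 for Cdk1, 1.33 for Ccnb1 and 2.92 for Birc5 on the log2 scale (adjusted p = 1 for each). The BL6 libraries on SD were the lowest for Birc5, with 3 of 4 at 0.

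In activated Tconv of the rest of the brain, edgeR called 0 of 46 members by diet and 0% of all genes (6 against 7 libraries). The unadjusted p was under 0.05 for 2 members, Kif2c and Bub1b, both lower on HFD, and for 4.81% of all genes. DESeq2 called 0 members and 0.108% of all genes, limma-voom 0 members and 0.00814%. Here 39 of 46 members leaned lower on HFD, with a median of −0.64 against −0.03 for all genes, −1.53 in BalbC alone and −0.18 in BL6 alone.

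Bub1b was over the floor in 3 of 6 HFD libraries (highest 2.94 CPM) and in 6 of 7 SD libraries (0, 9.57 and 22.2 CPM; −4.42 ± 1.48, adjusted p = 0.901), and Kif2c in 2 of 6 (highest 0.365 CPM) and 5 of 7 (highest 15.2 CPM; −4.96 ± 1.83, adjusted p = 0.901). Mki67 was at 47.7, 18.4 and 19.4 in BL6 on HFD, 10.97, 21.5, 15.4 and 34.02 in BL6 on SD, 12.4, 9.33 and 21.3 in BalbC on HFD and 54.5, 54.3 and 14.6 in BalbC on SD (CPM). Top2a was at 48.4, 16.9 and 39.5 in BL6 on HFD, 12, 7.90, 13.1 and 68.9 in BL6 on SD, 8.52, 12.7 and 13.02 in BalbC on HFD and 36.4, 57.4 and 12.3 in BalbC on SD (CPM). The BalbC pools 32_36 and 37_41 on SD were the highest in Mki67, and the BL6 pool 67_71 on SD the highest in Top2a. Cdk1 was at 33.2, 15.3 and 11.1 in BL6 on HFD, 27.9, 9.05, 4.94 and 37.04 in BL6 on SD, 19.1, 12.1 and 11.7 in BalbC on HFD and 38.7, 44.2 and 6.88 in BalbC on SD (CPM). Ccnb1 was at 0.0890, 3.90 and 7.77 in BL6 on HFD, 27.1, 9.94, 0 and 62.4 in BL6 on SD, 7.82, 0.313 and 3.39 in BalbC on HFD and 18.9, 21.01 and 0.265 in BalbC on SD (CPM). Birc5 was at 69.05, 0 and 30.3 in BL6 on HFD, 21.8, 20.2, 0 and 86.7 in BL6 on SD, 14.4, 14.9 and 31.6 in BalbC on HFD and 83.3, 131 and 69.8 in BalbC on SD (CPM). The diets overlap in each of the 5 genes.

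Diet and tissue were tested together in activated Tconv, since the lean was upwards in the hypothalamus and downwards elsewhere. EdgeR called 0 of 47 members and 0% of all genes, with 15 members higher at an unadjusted p under 0.05 and 5.68% of all genes there. DESeq2 called 4 members, Aurkb, Bub1b, Kif2c and Nusap1, all higher, and 0.822% of all genes, limma-voom 0 members and 0%. The median of the interaction was 2.77 over the members (44 positive, 3 negative) and 0.02 over all genes. It was 11.38 ± 2.99 for Kif2c (adjusted p = 0.55), 10.10 ± 3.69 for Cdc25c (adjusted p = 0.658) and 9.57 ± 3.24 for Bub1b (adjusted p = 0.61). For Cdc25c all rest-brain libraries on HFD were at or under the floor, so that size cannot be measured. It was −0.83 for Ncapd2, −0.66 for Anln and −0.23 for Kif20b.

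Strain and diet were tested together in hypothalamic activated Tconv. EdgeR called 0 of 47 members and 0% of all genes, with 11 members lower at an unadjusted p under 0.05 and 4.53% of all genes there. DESeq2 called 10 members, all lower, and 1.53% of all genes, and limma-voom 0 members and 0%. The median was −2.82 over the members (4 positive, 43 negative) and 0.01 over all genes, a negative value meaning a smaller lean towards HFD in BalbC than in BL6. It was −12.65 ± 3.49 for Ckap2 and −11.83 ± 3.17 for Nusap1 (adjusted p = 0.953 for both) and −10.50 ± 3.72 for Bub1b (adjusted p = 1). All BL6 libraries on SD held 0 counts of these genes, so those sizes cannot be measured. The median over the members includes such sizes. It was 0.95 for Ncapd2, 0.76 for Pttg1 and 0.32 for Smc4.

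In hypothalamic Tregs, 9 of 47 members passed the filter on low counts and edgeR called 0 by diet (8 against 8 libraries), as it did of all genes (0%). At an unadjusted p under 0.05 there were 0 members and 2.77% of all genes. DESeq2 called 0 members and 2.73% of all genes, limma-voom 0 members and 0.0518%. The median was 0.90 over the 9 members and 0.20 over all genes. It was −0.50 without pool 72_76 of BL6 on HFD, so its sign rests on 1 library, and 0.97 over 7 members without the 4 doubted libraries, where 0 were called. With more than 10 counts in total as the filter, 44 members were tested and 0 called. Their median was 5.08 (40 positive, 4 negative), against −0.14 for all genes. Several of them, such as Cdk1, Ndc80 and Plk1, were over the floor in pool 72_76 of BL6 on HFD alone. Their direction was set by that pool, and its part in this median was not tested. The unadjusted p was then under 0.05 for 17 members, all higher, and for 2837 of 13160 genes.

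Kif20a was over the floor in 6 of 8 HFD libraries (0, 8.11 and 138 CPM) and in 2 of 8 SD libraries (highest 7.35 CPM; 5.14 ± 2.68, adjusted p = 1). Tacc3 differed by 5.61 ± 5.06, Ncaph by 5.23 ± 5.61, Mad2l1 by 0.17 ± 2.56, Smc4 by −0.17 ± 0.93 and Pttg1 by −0.12 ± 1.42 (adjusted p = 1 for each). Mki67 was at 0, 0, 102 and 0 in BL6 on HFD, 0, 253, 0 and 0.119 in BL6 on SD, 0, 0, 0 and 157 in BalbC on HFD and 0 in all 4 of BalbC on SD (CPM). Top2a was at 0, 0, 108 and 0 in BL6 on HFD, 0 in all 4 of BL6 on SD, 0, 124, 0 and 0 in BalbC on HFD and 0, 0.0977, 2.02 and 0 in BalbC on SD (CPM). Most values are 0, and a library that holds one of these genes mostly lacks the other, apart from the BL6 pool 72_76 on HFD. Cdk1 was at 0.0858, 0, 107 and 0 in BL6 on HFD, 0 in all 4 of BL6 on SD, 0 in all 4 of BalbC on HFD and 0 in all 4 of BalbC on SD (CPM). Ccnb1 was at 0.0858, 0, 175 and 0 in BL6 on HFD, 0.832, 0.580, 0 and 0 in BL6 on SD, 0 in all 4 of BalbC on HFD and 0 in all 4 of BalbC on SD (CPM). Birc5 was at 0.0858, 0, 163 and 0 in BL6 on HFD, 0.119, 46.4, 0 and 0.119 in BL6 on SD, 63.3, 0, 0 and 0.0597 in BalbC on HFD and 0 in all 4 of BalbC on SD (CPM). Only pool 72_76 held all 5 genes over the floor.

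The largest lean by diet was in rest-brain Tregs, and it passed no threshold with edgeR: 0 of 46 members and 0% of all genes were called (8 HFD against 6 SD libraries). The unadjusted p was under 0.05 for 24 members, all higher on HFD, and for 7.28% of all genes. DESeq2 called 22 members, all higher, and 3.12% of all genes, whereas limma-voom called 0 members and 0.137%. All 46 tested members leaned higher on HFD, with a median log2 fold change of 6.64 against 0.10 for all genes. The median was 6.01 with 19 members set to their bounds, because all SD libraries were at or under the floor. Those 19 could pass the filter on low counts only through HFD libraries, so their direction was fixed in advance. The median was 10.80 in BL6 alone (46 members) and 1.83 in BalbC alone (33 members, 23 positive), so the sets differ. BL6 libraries on SD held only 6 to 12 members over the floor, and no bounds were set here. The fitted 10.80 is therefore not a measured size. The number of features over the floor moves with diet here as well: it was 8802 to 9956 on HFD and 5960 to 9080 on SD in BL6, and 9387 to 10281 and 8790 to 9196 in BalbC. Its part in the result was not tested.

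Birc5 was at 479, 75.02, 0 and 159.8 in BL6 on HFD, 0.0400, 0, 0 and 0 in BL6 on SD, 0.0957, 4.12, 0 and 189 in BalbC on HFD and 0 in both of BalbC on SD (CPM). On SD all 6 libraries were at or under the floor and on HFD 5 of 8 were over it. The mean CPM on HFD was at least 607-fold above the mean SD floor, without being called (adjusted p = 0.251). That mean rests on a few HFD libraries. Top2a was at 8.23, 97.6, 0 and 64.8 in BL6 on HFD, 0, 0, 0.0581 and 0 in BL6 on SD, 6.70, 42.5, 41.8 and 1.88 in BalbC on HFD and 0 in both of BalbC on SD (CPM). Again all 6 SD libraries were at or under the floor. The mean CPM on HFD was at least 176-fold above their mean floor, without being called (adjusted p = 0.251).

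Mki67 was at 6.97, 108, 0.123 and 95.4 in BL6 on HFD, 0, 0, 6.62 and 0 in BL6 on SD, 3.54, 42.1, 2.89 and 122 in BalbC on HFD and 29.8 and 97.4 in BalbC on SD (CPM). Mki67 was less sharply split, since both BalbC libraries on SD and 1 BL6 library on SD held it (log2 fold change 2.43). Ccnb1 was at 458, 139, 0 and 119.7 in BL6 on HFD, 0.0400, 0, 0 and 0 in BL6 on SD, 0, 14.6, 0 and 72.8 in BalbC on HFD and 6.81 and 0 in BalbC on SD (CPM). Cdk1 was at 66.5, 45.6, 0 and 82.8 in BL6 on HFD, 0 in all 4 of BL6 on SD, 17.3, 0, 0 and 45.9 in BalbC on HFD and 0 and 13.2 in BalbC on SD (CPM). The log2 fold changes were 7.53 for Ccnb1 and 6.50 for Cdk1, neither called.

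Ccnb2 was over the floor in 4 of 8 HFD libraries (0, 110.2 and 325 CPM) and in 0 of 6 SD libraries. Its mean CPM on HFD was at least 705-fold above the mean SD floor, without being called (adjusted p = 0.489). Ckap2 was over the floor in 5 of 8 (0, 17.7 and 123 CPM) and 0 of 6, with a mean at least 239.7-fold higher, not called (adjusted p = 0.489). In each gene the HFD libraries split into some at 0 and some far above any SD library. By contrast Smc4 differed by 0.17 ± 0.19, Mad2l1 by 0.78 ± 1.60 and Pttg1 by 0.84 ± 0.52 (adjusted p = 1 for each).

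**Figure D3:**
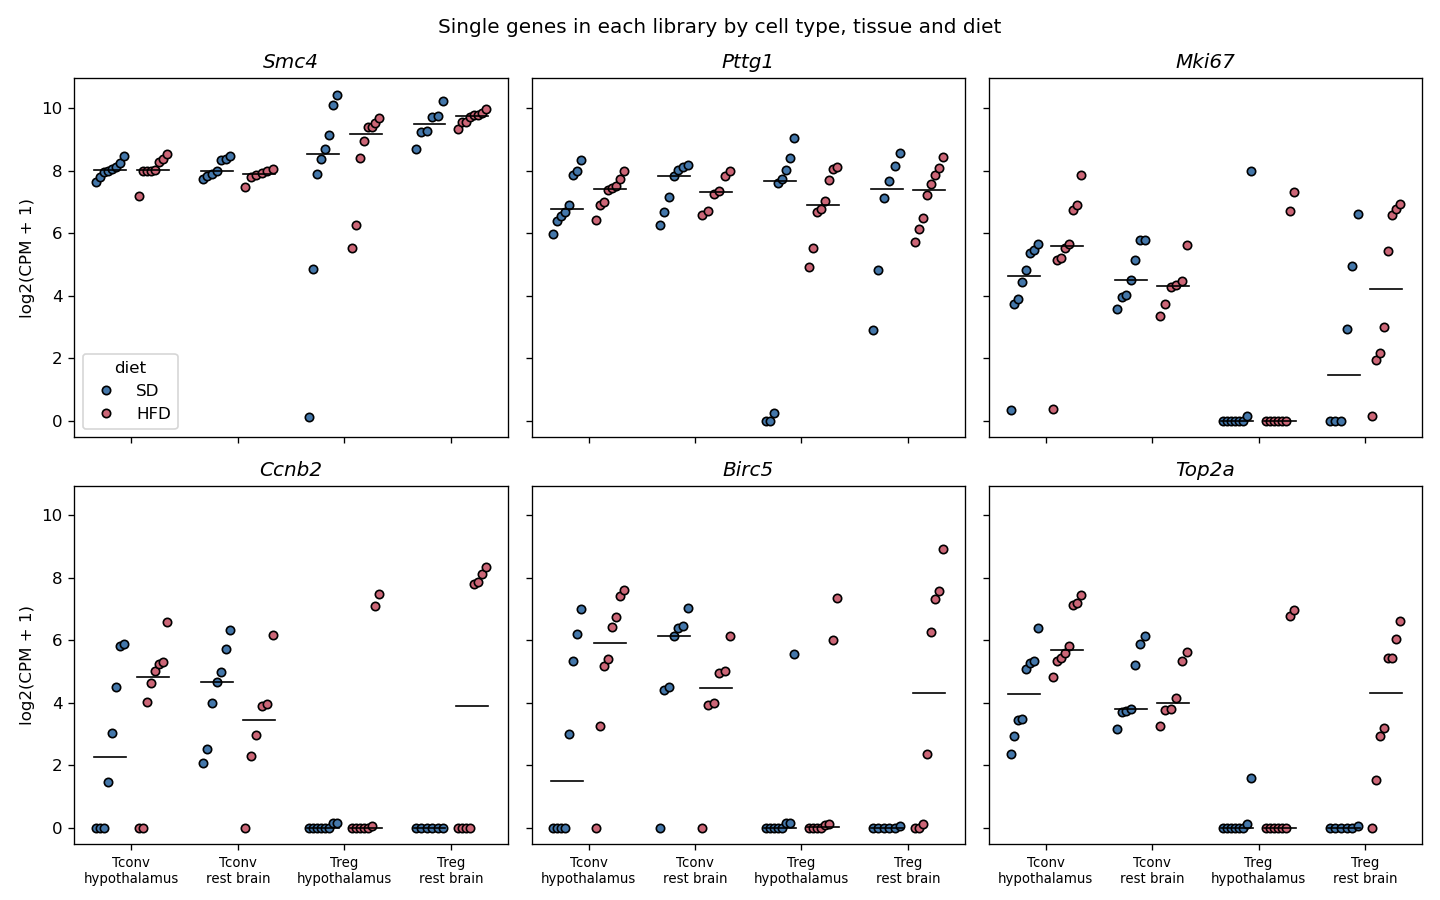
Level of 6 genes as log2(CPM + 1) (vertical axis) in each library by cell type and tissue (horizontal axis), blue for SD and red for HFD, with a line at the median of each set of points. Smc4 lies above all activated Tconv libraries in rest-brain Tregs, and Ccnb2, Birc5 and Top2a spread widely in rest-brain Treg libraries on HFD and lie near 0 in those on SD.

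Compared per transcript length (TPM, the same scale corrected for length), Pttg1 was the most abundant member by median level in all 4 sets of libraries, with 333 TPM in activated Tconv of either tissue, 386 in rest-brain Tregs and 262 in hypothalamic Tregs. Cks2 held 141 TPM in hypothalamic and 136 in rest-brain activated Tconv, and 130 and 135 TPM in Tregs of the same tissues. Smc4 held 78.7 and 69.7 TPM in activated Tconv, and 143 and 267 TPM in Tregs, where it came second after Pttg1. Ranges are wide, with Pttg1 between 139 and 651 TPM and Cks2 between 34.6 and 321 TPM in hypothalamic activated Tconv, so these neighbours overlap. Below these 3, hypothalamic activated Tconv held 55.9 TPM of Birc5, 54.3 of Mad2l1 and 41.5 of Cenpa, and rest-brain activated Tconv 34.4, 38.5 and 39.1 TPM. In Tregs the same genes were at 0, 0 and 20.2 TPM in the hypothalamus and at 0.00755, 29.96 and 82.4 TPM in the rest of the brain.

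Over the 29 activated Tconv libraries the members moved together to different degrees, given here as a description. The median Pearson r between pairs of members was 0.497. Against the mean of the other members, r and Spearman's rho were 0.868 and 0.928 for Birc5, 0.840 and 0.876 for Ccnb2, 0.805 and 0.800 for Cenpa, 0.797 and 0.802 for Top2a, and 0.740 and 0.704 for Kif11. They were 0.649 and 0.622 for Cks2, 0.436 and 0.554 for Mki67 and 0.377 and 0.418 for Smc4. For Pttg1 they were −0.274 and −0.254, so the most abundant member moved apart from the rest. The member score had r of 0.0220 and rho of 0.192 with the number of features over the floor, and 0.0905 and 0.109 with the total counts.

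Other cell cycle genes were counted from 5 further lists. In the hypothalamus, where 13.9% of all genes were called, 26 of 68 tested other mitosis genes fell in Tregs against activated Tconv and 0 rose (median −5.49), among them Spag5 (−9.78 ± 1.81, adjusted p = 2.37e-04) and Ska3 (−10.42 ± 1.81, adjusted p = 3.55e-04), both of spindle attachment. Of 17 regulators of the B-Myb, FoxM1 and DREAM kind, 4 fell: E2f7 (−7.14), E2f1 (−7.38), Mybl2, which encodes B-Myb (−7.01), and E2f8 (−6.26), with a median of −1.51 over the list. Of 30 DNA replication genes 4 fell, Rfc4 (−10.95), Gins2 (−8.32), Chaf1a (−8.41) and Cdc45 (−8.33), with a median of −2.93. Among 14 tested inhibitors and quiescence genes Foxo3 (−6.38) and Btg1 (−0.72, adjusted p = 0.0344) fell (median −0.70), and among 8 tested G1 cyclins and kinases Ccnd3 (−1.98, adjusted p = 0.0464) did (median −1.49). All 5 list medians were negative, as was that of all genes.

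Against 15.7% of all genes in the rest of the brain, 5 of 71 other mitosis genes fell in Tregs, Kntc1, Cit, Espl1, Pbk and Ncapg2 (median −1.10). Among the regulators Rbl2, the p130 pocket protein of DREAM, rose (0.86 ± 0.20, adjusted p = 0.00318), with a list median of −0.02. Among 15 inhibitors and quiescence genes Btg1 (−0.89), Tob1 (−1.36) and Slfn2 (−0.67) fell (median −0.59), among 30 replication genes Mcm6, a subunit of the replicative helicase, rose (0.99, adjusted p = 0.0495; median 0.02), and of 9 G1 genes 0 were called by edgeR, 0 at an unadjusted p under 0.05 (median −0.36). Btg1 was the most abundant of the inhibitors, at medians of 2531 CPM in activated Tconv and 1482 CPM in Tregs.

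Between tissues, replication genes were called in activated Tconv although no member was: beside 17.4% of all genes, 9 of 30 rose in the hypothalamus and 0 fell (median 0.38). They were Fen1 (1.57), Mcm5 (1.60), Mcm2 (1.37), Mcm7 (1.15), Mcm6 (0.75), Chaf1b (1.44), Rfc5 (0.79), Lig1 (1.10) and Rpa2 (0.56). Of the G1 genes Ccnd3 (1.05), Ccnd2 (0.42) and Cdk6 (1.24) rose and Ccnd1 (−5.10) fell, of the regulators E2f4 (0.62) and Tfdp1 (0.55) rose, of other mitosis genes Ncaph2 (0.77) and Pkmyt1 (0.96) rose, and Btg1 (−0.46) fell. The member score had r of 0.598 and rho of 0.535 with the same score over replication genes, and 0.942 and 0.909 with that over other mitosis genes (n = 29 activated Tconv libraries). In Tregs, with 5.6% of all genes called, 9 of 68 other mitosis genes fell in the hypothalamus (median −2.02), Foxo3 (−8.58) and Rfc4 (−9.13) fell, and 0 regulators and 0 G1 genes were called by edgeR, with 3 and 0 at an unadjusted p under 0.05.

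By strain, Mcm6 (−1.03, adjusted p = 0.0221) was the 1 gene of these lists called in hypothalamic activated Tconv. In rest-brain activated Tconv, where 23.5% of all genes were called, 4 other mitosis genes rose and 2 fell in BalbC of 70 tested, 4 replication genes rose and 3 fell of 30, and of the G1 genes Ccnd3 (−1.48) and Ccnd2 (−0.82) fell. The regulators E2f4 and Rbbp4 fell there, Btg1 rose and Slfn2 fell. By diet edgeR called 0 genes of any list in any tissue or cell type. In rest-brain Tregs 24 of 66 other mitosis genes were higher on HFD at an unadjusted p under 0.05, where 7.28% of all genes lay (median 4.46), beside 5 of 30 replication genes (median 1.13).

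The RefSeq promoters of members (GRCm38.p6, from 250 bases before to 50 after the start) are shown because genes of G2 and M phase are known to share CCAAT boxes, bound by NF-Y, and the cell cycle homology region, TTTGAA in one form and TTCGAA in the other, bound by DREAM. They were found for 41 of 47 members, all but Kif20a, Smc4, Aurkb, Tpx2, Ccna2 and Cdc25c. On either strand, CCAAT was in 29 of 41 members (70.7%) and in 37.5% of all 27025 promoters, TTTGAA in 15 (36.6%) and 18.3%, and TTCGAA in 2 (4.88%) and 1.55%. Both the CCAAT box and the form TTTGAA were in 13 members (31.7%) and in 6.45% of all promoters, and 20 members (48.8%) and 11.5% of all promoters held CCAAT at least 2 times. A match of letters is a description and not a bound site.

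The 150 bases before the start of 5 members, as the promoter table places it, are printed 5′ to 3′ on the gene's strand: 4 of the standard cycling genes, and Cdc20 as the activator of anaphase. For Mki67 that start lies inside the span of the gene, so the window overlaps it. Capitals mark the CCAAT box and either form of the homology region, searched on both strands, so that ATTGG stands for a CCAAT box of the opposite strand. The windows are chr7:135716380-135716529 (minus strand) for Mki67, chr13:100786487-100786636 (minus) for Ccnb1, chr10:69352913-69353062 (minus) for Cdk1, chr11:117849087-117849236 (plus) for Birc5 and chr4:118437344-118437493 (minus) for Cdc20. That of Birc5 holds none of these letters.
Mki67: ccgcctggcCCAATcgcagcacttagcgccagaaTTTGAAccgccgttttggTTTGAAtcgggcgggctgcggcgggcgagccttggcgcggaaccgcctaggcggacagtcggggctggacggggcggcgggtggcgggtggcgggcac
Ccnb1: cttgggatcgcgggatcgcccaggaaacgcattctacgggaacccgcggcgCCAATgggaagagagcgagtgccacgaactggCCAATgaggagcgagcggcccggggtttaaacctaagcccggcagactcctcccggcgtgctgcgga
Cdk1: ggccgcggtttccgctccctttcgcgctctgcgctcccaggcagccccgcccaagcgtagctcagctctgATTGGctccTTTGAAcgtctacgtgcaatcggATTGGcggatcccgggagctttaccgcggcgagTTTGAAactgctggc
Birc5: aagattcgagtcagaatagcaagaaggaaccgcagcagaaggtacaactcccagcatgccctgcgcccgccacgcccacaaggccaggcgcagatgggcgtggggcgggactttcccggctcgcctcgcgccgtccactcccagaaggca
Cdc20: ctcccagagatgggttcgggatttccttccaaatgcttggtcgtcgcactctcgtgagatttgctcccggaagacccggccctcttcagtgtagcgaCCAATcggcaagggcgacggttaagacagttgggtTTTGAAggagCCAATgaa

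The pilot had 8 hypothalamic libraries with no replicates, so its values are a description. CD4+ T cells and CD25hi Tregs came from pools of 7 females, genetically obese ob/ob mice (which lack leptin) and BL6 wild-type (WT) controls. Naive CD4+ CD44low cells and Foxp3GFP+ Tregs came from pools of 9 BalbC Foxp3 GFP females after 16 weeks of HFHSD or SD. Counts on genes ran from 99925 (ob/ob CD25hi) to 5334511 (WT CD25hi), and 3 counts were 30.02 CPM and 0.562 CPM there.

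Members over 3 counts numbered 23 in ob/ob CD4+ cells, 3 in ob/ob CD25hi Tregs, 8 in WT CD4+ cells and 7 in WT CD25hi Tregs. They numbered 24 in CD44low cells on HFHSD, 22 in CD44low cells on SD, 12 in Foxp3GFP+ Tregs on HFHSD and 13 in those on SD. Each library labelled Treg thus held fewer members than the other population of the same mice, but Foxp3 does not follow all of the labels. It had 27 counts in ob/ob CD25hi and 48 in ob/ob CD4+ cells, 13 of 5334511 in WT CD25hi and 66 of 220336 in WT CD4+ cells, 184 in Foxp3GFP+ and 3 in CD44low cells on HFHSD, and 93 of 1234423 and 241 of 3315451 on SD. Depth differed as well, and the library with the fewest members had the fewest counts. The library with the most counts, WT CD25hi, nonetheless held only 7 members.

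Smc4 had the most counts of all members in 6 of 8 pilot libraries, with 2115, 169, 96 and 0 counts in ob/ob CD4+, ob/ob CD25hi, WT CD4+ and WT CD25hi cells. It had 1908 and 10265 counts in CD44low and Foxp3GFP+ cells on HFHSD and 4832 and 1928 on SD. Foxp3GFP+ Tregs on HFHSD summed to 5497 CPM over all members (95% interval 5395 to 5599.9), 92.0% of it Smc4, and those on SD to 2555 CPM (2467 to 2646), 61.1% of it Smc4. CD44low cells summed to 1579 CPM (1526 to 1633) on HFHSD and to 2049 CPM (2001 to 2099) on SD.

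The ob/ob and WT libraries summed to 2424 CPM (2352 to 2499) in ob/ob CD4+, 2152 CPM (1874 to 2459) in ob/ob CD25hi, 1938 CPM (1758 to 2131) in WT CD4+ and 255 CPM (241 to 269) in WT CD25hi cells. Pttg1 had 460, 0, 141 and 561 counts in that order, then 84 and 104 in CD44low and Foxp3GFP+ cells on HFHSD and 64 and 212 on SD. Smc2 had 93, 0, 75 and 0, then 20, 3, 546 and 601. Kif20b had 532 counts in ob/ob CD4+ cells and 233 in Foxp3GFP+ Tregs on HFHSD and 0 in the other 6, and Kif20a had 102, 17, 108 and 315 counts in ob/ob CD4+ cells, CD44low and Foxp3GFP+ cells on HFHSD and CD44low cells on SD, and 0 in the rest.

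Of the standard cycling genes, Mki67 had 23 counts in ob/ob CD4+ cells, 89 and 104 in CD44low and Foxp3GFP+ cells on HFHSD, 4 and 71 on SD and 0 in the other 3. Top2a had 28, 0, 7 and 160 counts in ob/ob CD4+, ob/ob CD25hi, WT CD4+ and WT CD25hi cells, 0 and 52 in CD44low and Foxp3GFP+ cells on HFHSD and 181 and 44 on SD. Cdk1 had 2 counts in WT CD4+ cells, 175 in CD44low cells on HFHSD, 10 and 25 in CD44low and Foxp3GFP+ cells on SD and 0 in the other 4. Birc5 had 112 in CD44low cells on HFHSD and 0 elsewhere. Ccnb1 reached 1 count at most, and Cdc25c and Cdca8 had 0 in all 8, which allows up to the CPM of 3 counts in each library.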

How the data were processed

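The larger experiment was read from the authors' deposited estimated counts (Salmon NumReads, not whole numbers), and levels per length from the authors' deposited TPM values. The pilot was read from the authors' deposited counts (HTSeq, raw, by gene symbol). Of 35034 RefSeq names per library, 34652 (98.9%) matched a gene and were summed to 24546 features, 5521 of them from more than 1 name. All 47 members matched in both experiments. The files' build is mm10.

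Tests used edgeR 4.0.16 (TMM, quasi-likelihood) in R 4.3.3 on rounded counts, over genes that passed 10 counts in a number of libraries no smaller than that of the smallest group, with Benjamini-Hochberg adjustment over all genes tested and a threshold of 0.05. Fits of cell type and tissue held strain and diet as 1 factor, fits of strain held diet, and fits of diet held strain. In all, 15 comparisons were tested. DESeq2 1.42.0 and limma 3.58.1 (voom with quality weights) were alternatives. Scores are means of log2(CPM + 1), and other work used Python 3.11.15 with numpy 2.4.6, pandas 2.3.3, scipy 1.17.1 and matplotlib 3.10.9. The floor was 3 counts per library, averaged over a group for a bound. A bound sets the mean CPM of the other group against that mean floor, so a few high libraries can set its size. A gene at or under the floor in all libraries of 1 group could pass the filter only through the other group. Its direction was then fixed in advance. Floors and the 95% Poisson intervals of the pilot cover counting error only, since reads amplified by PCR are not independent molecules.

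The members and lists were chosen with earlier results of these data known. Genes with values were named by rule: each member past the threshold, up to 10 with the smallest p, then the 3 highest and 3 lowest fold changes among those tested, with Mki67, Top2a, Ccnb1, Cdk1 and Birc5 throughout, the 5 members with most counts in the pilot, and of other lists those past the threshold and the most abundant. Other members, and genes named beside a small count, were chosen after their values were seen. Comparisons of the same libraries by cell type, tissue, strain or diet share those libraries. In scores each library has the same weight except where means over groups are named. Fitted fold changes hold strain or diet, so their sign can differ from that of the mean CPM. Where most libraries of a group were at or under the floor, the fitted size is not a measured one. No library was left out except where stated. A summed level of the microglia list is not reported here.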

Additional observations from a re-analysis of the deposited data

Results flagged for a closer look

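In groups of 4 libraries, a library was taken out for a closer look where its distance to the nearest other library was above Dixon's 95% limit as a share of the group's range. This was examined in 12 groups of 4 libraries for the member score and 7 single genes, 96 cases in all, and 17 passed. Chance alone passes about 1 in 20 groups. That rate does not hold where all other libraries of a group are at 0, as for Mki67 in pool 62_66 below. There any value over 0 passes. Cases from the same library are not independent either. Values are log2(CPM + 1), and no cause was tested.

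The hypothalamic Treg pool 72_76 of BL6 on HFD stood far above the other 3 of its group in the member score (5.98), Mki67 (6.69), Top2a (6.77), Ccnb1 (7.46), Cdk1 (6.76) and Birc5 (7.36). The rest-brain Treg pool 47_25 of BalbC on HFD stood above the rest of its group in the member score (5.50). In rest-brain Tregs of BL6, Cdk1 was far below the others in pool 38_42 on HFD, at 0, and Mki67 was above them in pool 62_66 on SD, at 2.93.

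In hypothalamic Tregs, Mki67 (7.99) and Birc5 (5.57) stood out in the doubted pool 43_47 of BL6 on SD. In BalbC on HFD, Mki67 stood out in pool 26_31 (7.31), Top2a in pool 15_21 (6.96) and Birc5 in pool 11_14 (6.01), each in a different library. In BalbC on SD, Top2a (1.59) and Pttg1 (8.02) stood out in pool 37_41. Among activated Tconv, Birc5 stood out in the hypothalamic pool 43_47 of BL6 on SD, at 3.01.

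The difference between Tregs and activated Tconv in Ect2 was itself different between the tissues, hypothalamus against rest brain, by a fitted −11.46 on the log2 scale (adjusted p = 1.04e-04), with every hypothalamic Treg library at or under the floor.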

How the results depend on the processing

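With DESeq2 the count of members called went to 28 for Tregs against activated Tconv in the hypothalamus (beside 2659 of 10322 genes), and to 15 outside it (2 higher, 13 lower, 2662 of 13103 genes). It went to 13 for the tissues in Tregs (1849 of 10512), 6 and 8 for the strains in hypothalamic and rest-brain activated Tconv (544 of 10741 and 3722 of 12003), and 3 for the strains in rest-brain Tregs (300 of 10169). By diet it was 1 in hypothalamic activated Tconv (16 of 10741) and 22 in rest-brain Tregs (327 of 10475). The interactions gave 4 (tissue with diet, 103 of 12527), 10 (strain with diet, 165 of 10795) and 2 (cell type with tissue, 1507 of 13054). With limma-voom the cell types gave 36 (7467 of 11285 genes) and 8 (3501 of 13961), the tissues in Tregs 10 (4287 of 12607), the strains 9 in rest-brain activated Tconv (3365 of 12289) and 1 in rest-brain Tregs (123 of 11711), and cell type with tissue 10 (5905 of 14771). The cause was not tested.

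With the pool number as a replicate block, the counts were 40 for the cell types in the hypothalamus (5543 of 11285 genes), 9 in the rest of the brain (1 higher, 8 lower, 1767 of 13961 genes), 0 for the tissues in Tregs (0 of 12607) and 8 for cell type with tissue (1238 of 14771). For the tissues in activated Tconv the count was 0 (115 of 12837). Samples paired by this block share only a number, and the labels do not state that equal numbers are the same mice. Over 15, 12, 9 and 10 pairs no correlation of deviations was over 0.1 (highest 0.0439), and 4, 4, 3 and 0 samples correlated best with their own number.

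With more than 10 counts in total as the filter, 2 members were called for the tissues in Tregs and 2 for cell type with tissue, and DESeq2's size factors in edgeR gave 2 for the latter. With HFD alone or SD alone the strain counts in activated Tconv were 0 (hypothalamus) and 2 (rest brain), with fewer libraries. Without the 4 doubted libraries, an alternative chosen after seeing the data, cell type with tissue gave 3. The difference of the member score between Tregs and activated Tconv, here between means over the 4 groups of strain and diet, −2.43 (hypothalamus) and −0.88 (rest brain), became −4.11 and −2.02 with a pseudocount of 0.1. With TMM scaling it was −2.41 and −0.92, and with TPM −1.89 and −0.43. CCAAT on the gene's strand alone was in 46.3% of members. Among these counts and values 67 stayed within their limits and 32 moved.

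Leaving out each library in turn gave 12 to 29 members for the cell types in the hypothalamus (29 without the Treg pool 72_76 of BL6 on HFD) and 2 to 10 in the rest of the brain (10 without the Treg pool 47_25 of BalbC on HFD). It gave 0 to 1 for the tissues in activated Tconv (1 without the hypothalamic pools 11_15 of BL6 on SD or 26_31 of BalbC on HFD). For the tissues in Tregs it gave 1 (without the rest-brain pool 42_46 of BalbC on SD) to 12 (without the hypothalamic pool 72_76 of BL6 on HFD), and 2 without the rest-brain BalbC pools 15_21 or 37_41, the hypothalamic BL6 pool 06_10, or the hypothalamic BalbC pools 11_14, 16_20, 26_31, 06_10, 32_36, 37_41 or 42_46.

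For the strains in hypothalamic activated Tconv it gave 1 (without the BL6 pools on HFD 33_37, 72_76 or 77_80, or the BalbC pools 11_14, 32_36 or 37_41) to 3 (without the BL6 pool 06_10 on HFD). In rest-brain activated Tconv it gave 2 (without the BL6 pools 38_42, 77_80 or 11_15, or the BalbC pools 15_21 or 32_36), 3 (without the BL6 pool 01_05 or the BalbC pools 47_25 or 37_41) and at most 6. The strains gave 0 to 0 in hypothalamic Tregs and 0 to 1 in rest-brain Tregs (1 without the BalbC pool 47_25), the 4 comparisons by diet 0 to 0, tissue with diet 0 to 1 (1 without the hypothalamic BalbC pool 32_36 on SD) and strain with diet 0 to 0. Cell type with tissue gave 1 to 10 (10 without the hypothalamic Treg pool 72_76), 3 without the hypothalamic Treg pool 43_47 of BL6 on SD and 2 without any of 15 others.

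Of single genes, Smc4 and Bub1 in rest-brain Tregs held in 27 of 27 fits with 1 library left out and in all 5 alternatives, Hmmr in 18 of 27. In the hypothalamus Ect2 and Cdk1 held in 32 of 32, and Bub1b was lost without the activated Tconv pool 32_36 of BalbC on SD (adjusted p = 0.0646). With limma-voom Ckap2 (0.0602), Plk1 (0.0562) and the interaction of Ect2 (0.0848) missed the threshold. The strain difference of Pttg1 in activated Tconv held in 16 of 16 and 13 of 13 fits with 1 library left out. It was not called on HFD alone in either tissue, nor on SD alone in the hypothalamus. Depth limits any statement on members at or under the floor, which are most of them in most Treg libraries.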
